A study of Homo sapiens with 8 samples.

Results

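Cells sense oxygen through hypoxia-inducible factor (HIF), a transcription factor made of an oxygen-regulated alpha subunit and a stable beta subunit. This section describes the mRNA of 10 genes of that system, picked by their symbols from the 60332 genes of the expression table. They are the alpha subunits HIF1A and EPAS1, the beta subunits ARNT and ARNT2, the prolyl hydroxylases EGLN1, EGLN2 and EGLN3, the asparaginyl hydroxylase HIF1AN, the ubiquitin ligase component VHL and the coactivator competitor CITED2. All 10 had a row in the table. Of these, 7 reached 1 FPKM in 2 or more of the 8 libraries and were tested. EPAS1, ARNT2 and EGLN3 stayed below that level and are given as values only.

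The RNA came from SK-N-MC, an established Ewing sarcoma cell line, in 4 groups with 2 libraries each. By the growth protocol, every cell pool received lentiviral dCas9-KRAB, a catalytically dead Cas9 joined to a repressor domain, and was selected with puromycin at 1 µg/ml. Control cells received the empty vector by the same protocol, although the text of the study calls them parental, and were grown for 16 h in normoxia or in hypoxia at 1% oxygen. The eKD1 and eKD2 cells each expressed 1 guide beside the GGAA-repeat enhancer of LOXHD1 and were analysed here after the same hypoxia, with no normoxic counterpart. They were transduced pools and not clones, and cells were used within 5 passages. LOXHD1, the targeted gene, was at 91.1 to 93.0 FPKM in hypoxic control cells, at 15 to 17.3 FPKM in eKD1 cells, and at 11.7 to 11.8 FPKM in eKD2. FPKM, which scales fragment numbers to transcript length and to mapped reads, is a level corrected for length, so levels of different genes can be set side by side. Without read totals in the table, absolute depth is unknown. Read from the step size of low values, the relative depth lay between 55.7% and 100% of the deepest library. All 8 Ewing sarcoma markers (CD99, NKX2-2, FLI1, NR0B1, STEAP1, LIPI, PRKCB and CCND1) were at 10.8 FPKM or more in every library, CDH5 of endothelium was at 0.821 FPKM or less, and CD3E of T cells was listed at 0 throughout. Each group had only 2 libraries, so the p-values measure the spread between these libraries, drawn toward a trend over all genes tested.

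In well-oxygenated cells, prolyl hydroxylases use oxygen to modify HIF alpha protein, and VHL then marks the modified protein for destruction. HIF1AN, also called FIH, modifies a different residue and blocks the binding of coactivators, while CITED2 competes with HIF alpha for the same coactivators. When oxygen falls, HIF alpha protein escapes both controls, pairs with ARNT and switches on genes through a short DNA motif, the hypoxia response element. EGLN1 and EGLN3 are known targets of HIF. The mRNA levels described here do not measure the protein, which is where most of this regulation takes place.

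Promoters are shown for the 3 genes with a called change that have the motif core in the window just before a transcription start. The sequences are from RefSeq (GRCh38.p14), each 250 bases long and written 5′ to 3′ on the strand of the gene. Capitals mark ACGTG or GCGTG, the 2 spellings of the core, searched on both strands. The EGLN1 window lies at chr1:231422288-231422537 on the minus strand, the HIF1A window (the first of 2 entries) at chr14:61695263-61695512 on the plus strand, and the CITED2 window (the first of 3) at chr6:139374649-139374898 on the minus strand. In CITED2 the capitals cover CACGTG, which reads ACGTG on both strands.
EGLN1: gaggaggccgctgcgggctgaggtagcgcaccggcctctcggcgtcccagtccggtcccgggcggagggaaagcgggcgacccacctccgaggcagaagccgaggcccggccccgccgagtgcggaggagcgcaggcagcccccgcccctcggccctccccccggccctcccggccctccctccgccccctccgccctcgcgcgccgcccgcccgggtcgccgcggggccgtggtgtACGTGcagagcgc
HIF1A: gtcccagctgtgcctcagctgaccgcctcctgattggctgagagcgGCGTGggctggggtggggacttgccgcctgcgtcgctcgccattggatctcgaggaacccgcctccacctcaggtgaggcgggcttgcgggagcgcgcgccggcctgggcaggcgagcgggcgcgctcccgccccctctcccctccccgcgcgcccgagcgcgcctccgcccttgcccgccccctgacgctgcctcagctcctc
CITED2: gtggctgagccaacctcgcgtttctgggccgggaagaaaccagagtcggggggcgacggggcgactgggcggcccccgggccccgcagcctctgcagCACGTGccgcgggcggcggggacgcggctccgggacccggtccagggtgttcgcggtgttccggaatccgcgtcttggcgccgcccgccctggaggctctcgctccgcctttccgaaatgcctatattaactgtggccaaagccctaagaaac
Among 35116 such windows of all genes, 18.5% held ACGTG, 32.2% held GCGTG and 43.2% held either. A core also lay in the first EGLN2 window (CACGTG) and in the EPAS1 window (GCGTG), although EGLN2 was not called in hypoxia and EPAS1 was not tested. The ARNT, EGLN3 and HIF1AN windows held neither spelling, nor did the second windows of HIF1A and EGLN2. The further CITED2 windows each held GCGTG. No window was at hand for ARNT2 and VHL. A match is a description of these letters and not evidence of binding.

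HIF1A was expressed in every library, far above EPAS1. It lies on the plus strand of chromosome 14, from 62162231 to 62214977 (GRCh37, as all gene positions below). Its level was 104.2 and 115.5 FPKM in normoxic control cells, 33.3 and 39.0 FPKM in hypoxic control cells, 44.02 and 41.3 FPKM in eKD1 cells, and 62.1 and 58.5 FPKM in eKD2. None of the 4 groups overlapped, and the order from highest to lowest was normoxia, eKD2, eKD1 and hypoxic control. EPAS1, which encodes the other major alpha subunit, HIF-2 alpha, was listed at 0 in 6 libraries and reached 0.188 FPKM in 1 hypoxic control library and 0.359 FPKM in 1 eKD2 library. Of the mRNA of these major alpha subunits, nearly all was HIF1A in every group. The third alpha gene, HIF3A, is described with the relatives of the subunits.

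ARNT, the constitutive partner of HIF alpha, lies on the minus strand of chromosome 1, from 150782189 to 150849184. It was at 14.0 and 16.1 FPKM in normoxia, 27.7 and 28.6 FPKM in hypoxic control cells, 25.9 and 21.5 FPKM in eKD1 cells, and 22.8 and 27.3 FPKM in eKD2. All 6 hypoxic libraries were above both normoxic ones, while the 2 eKD groups overlapped each other. Its relative ARNT2, best known from neurons, was listed at 0 in 5 libraries and never exceeded 0.401 FPKM.

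Of the prolyl hydroxylases, EGLN2 (PHD1) was the most abundant and EGLN1 (PHD2), the enzyme known as the main oxygen sensor in many cells, varied most. EGLN1 (chromosome 1, 231499497 to 231558033, minus strand) was at 11.1 and 11.9 FPKM in normoxia, 50.6 and 55.5 FPKM in hypoxic control cells, 53.7 and 50.9 FPKM in eKD1 cells, and 68.7 and 79.5 FPKM in eKD2. The normoxic libraries were lowest and the eKD2 libraries highest, with hypoxic control and eKD1 cells overlapping between them. EGLN2 (chromosome 19, 41304901 to 41314339, plus strand) was at 89.1 and 71.8 FPKM in normoxia, 101.5 and 100.6 FPKM in hypoxic control cells, 120.1 and 105.3 FPKM in eKD1 cells, and 95.4 and 110.5 FPKM in eKD2. The normoxic libraries were again lowest, and eKD2 overlapped both other hypoxic groups. EGLN3 (PHD3) was listed at 0 in 6 libraries, including both hypoxic control libraries, and was at 0.278 and 0.160 FPKM in eKD2.

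HIF1AN (chromosome 10, 102288829 to 102319755, plus strand) had the narrowest range of the tested members, 15.8 to 20.9 FPKM over all 8 libraries. VHL (chromosome 3, 10183462 to 10195351, plus strand) was at 20.7 and 21.1 FPKM in normoxia, 25.3 and 27.3 FPKM in hypoxic control cells, 23.4 and 25.0 FPKM in eKD1 cells, and 20.2 and 19.9 FPKM in eKD2. Its groups did not overlap, although the highest group mean was only 26.3 FPKM and the lowest 20.03 FPKM. CITED2 (chromosome 6, 139692944 to 139695785, minus strand) was the most abundant member, at 283.2 and 292.0 FPKM in normoxia, 225.7 and 213.0 FPKM in hypoxic control cells, 295.3 and 321.1 FPKM in eKD1 cells, and 388.1 and 420.9 FPKM in eKD2. Hypoxic control cells had the lowest CITED2 level and eKD2 cells the highest, with no overlap between any groups.

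**Figure D1:**
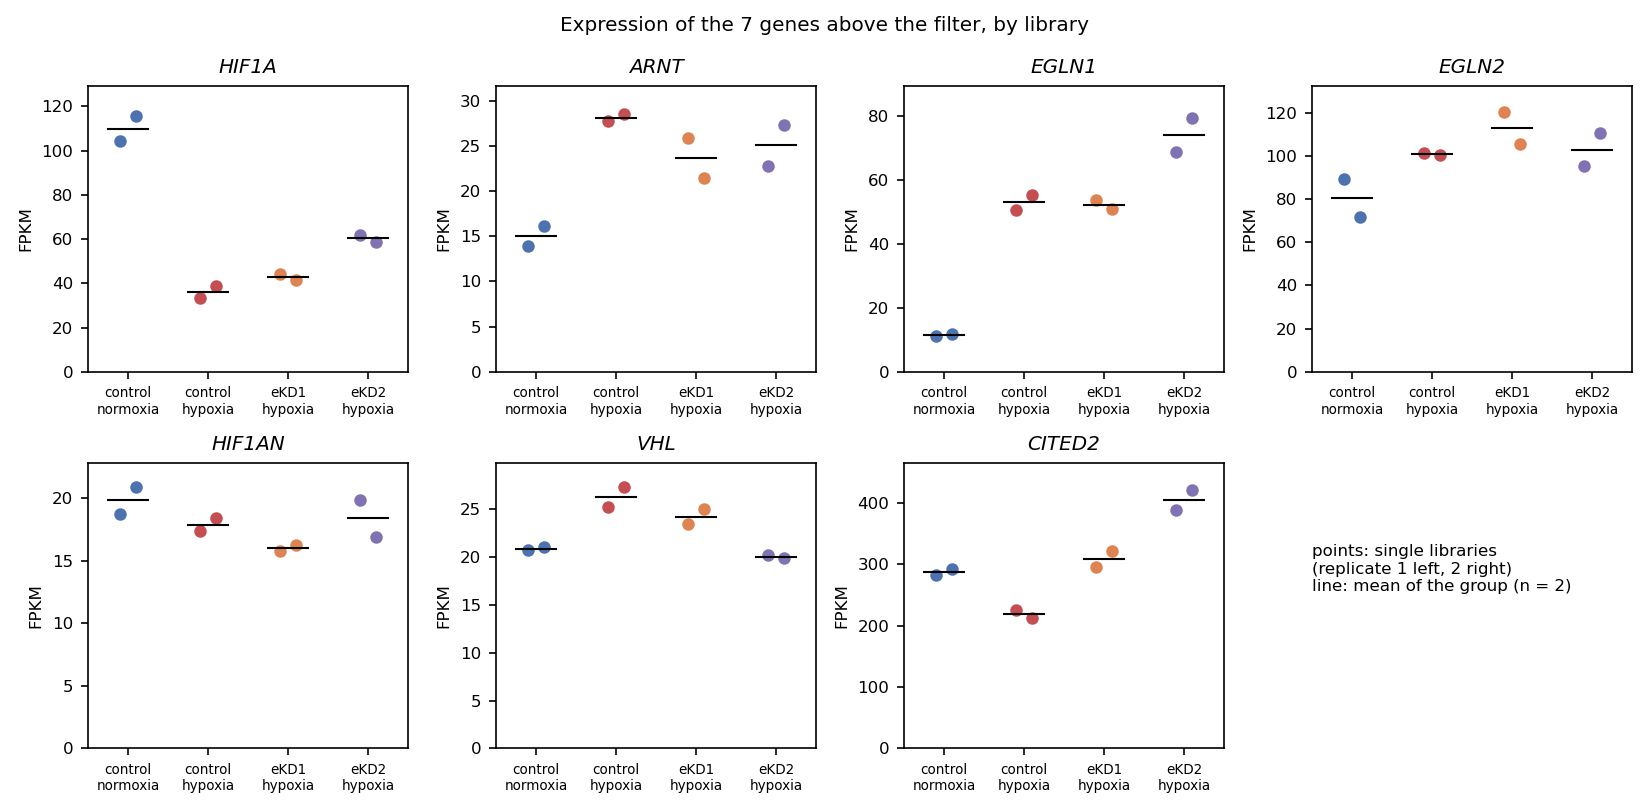
FPKM of the 7 tested genes in each of the 8 libraries (vertical axes start at 0), with points for single libraries and a line for the mean of each group (n = 2). HIF1A falls from 104.2 and 115.5 FPKM in normoxia to 33.3 and 39.0 FPKM in hypoxic control cells while EGLN1 rises, and HIF1AN stays between 15.8 and 20.9 FPKM.

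The comparison of hypoxic with normoxic control cells asked how the genes of oxygen sensing respond to low oxygen. EGLN1 and ARNT rose, HIF1A and CITED2 fell, and the remaining 3 tested members did not pass the threshold. That is 4 of 7 called, 2 higher and 2 lower, where 32.2% of all 15372 genes tested were called, 16.2% higher and 16% lower. EGLN1 rose 4.60-fold, from 11.5 ± 0.556 to 53.0 ± 3.49 FPKM (SD, n = 2), or by 2.11 on the log2 scale (SE 0.095, adjusted p = 0.00653). HIF1A dropped to 32.9% of its normoxic level, from 110 ± 7.98 to 36.2 ± 4.03 FPKM (SD, n = 2), which is -1.58 on the log2 scale (SE 0.111, adjusted p = 0.00809). ARNT rose 1.87-fold, by 0.86 on the log2 scale (SE 0.108, adjusted p = 0.0143). CITED2 reached 76.3% of its normoxic level, a log2 change of -0.39 (SE 0.0522, adjusted p = 0.016).

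The members without a call leaned in different directions. VHL had a log2 change of 0.32 (95% confidence interval 0.07 to 0.56, adjusted p = 0.0638) and EGLN2 one of 0.33 (-0.01 to 0.68, adjusted p = 0.117). HIF1AN had a log2 change of -0.14 (-0.43 to 0.15, adjusted p = 0.359). The libraries of the groups did not overlap for any of the 7 tested members, and the same held for 70.4% of all genes tested. Scaling the libraries to equal FPKM totals moved the median of all genes from 0.01 to -0.19. Under it EGLN1, ARNT, HIF1A and CITED2 kept their directions and calls, with log2 changes of 1.88, 0.63, -1.82 and -0.63. The call of CITED2 was lost without a variance trend (adjusted p = 0.0521) and with a replicate block (adjusted p = 0.0531).

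The next comparisons set each eKD group against control cells in hypoxia, and so asked what repression of the LOXHD1 enhancer changes when oxygen is low. In eKD2, HIF1A and CITED2 rose and no member fell past the threshold. These are 2 of 7 called, with 9.61% of all genes tested called and 5.8% called higher. CITED2 was 1.84-fold higher, at 405 ± 23.2 against 219 ± 8.95 FPKM (SD, n = 2), or by 0.88 on the log2 scale (SE 0.0636, adjusted p = 0.0273). HIF1A was 1.67-fold higher, at 60.3 ± 2.53 FPKM (SD, n = 2), or by 0.73 on the log2 scale (SE 0.104, adjusted p = 0.0408). EGLN1 and VHL missed the threshold, with log2 changes of 0.47 (0.18 to 0.77, adjusted p = 0.0722) and -0.38 (-0.61 to -0.14, adjusted p = 0.0734). ARNT, EGLN2 and HIF1AN had log2 changes of -0.17, 0.02 and 0.03. The libraries did not overlap for 5 of the 7, against 62.1% of all genes tested.

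Both eKD2 calls were lost without a variance trend, with adjusted p = 0.0674 for HIF1A and 0.0557 for CITED2, and with a replicate block, at 0.0975 and 0.0925. When every gene above 0 in any library was tested, an alternative chosen after seeing the data, HIF1A was lost (adjusted p = 0.0963) and CITED2 was not (0.047).

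In eKD1, 0 of 7 members were called by limma, where 0.0651% of all genes tested were called. At an unadjusted p under 0.05 there was 1 member, against 21.7% of all genes tested, namely CITED2, at 308 ± 18.2 FPKM (SD, n = 2) and 1.40-fold the hypoxic control level (log2 change 0.49, 0.30 to 0.67, adjusted p = 0.111). HIF1A was 1.18-fold the control level, a log2 change of 0.24 (-0.07 to 0.54, adjusted p = 0.307). EGLN1 differed by -0.02 (-0.24 to 0.21, adjusted p = 0.924), a value that turned to 0.05 with equal FPKM totals. The other 4 tested members had log2 changes between -0.24 and 0.15. Libraries did not overlap for 6 of the 7 members, against 53.6% of all genes tested. When the spread was estimated from all 8 libraries together, CITED2 was called in eKD1 (adjusted p = 0.0213).

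The direct test of eKD2 against eKD1 called 0 of 7 members by limma, with 0.403% of all genes tested called. At an unadjusted p under 0.05 there were 4, against 23.6% of all genes tested, namely HIF1A (log2 change 0.49, 0.27 to 0.70, adjusted p = 0.0874), CITED2 (0.39, 0.18 to 0.60, adjusted p = 0.106), EGLN1 (0.49, 0.21 to 0.77, adjusted p = 0.113) and VHL (-0.26, -0.51 to -0.01, adjusted p = 0.201). The eKD2 calls against control cells are thus not shown to differ from eKD1. The 2 hypoxic control libraries served in the hypoxia, eKD1 and eKD2 comparisons alike.

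Against normoxic control cells, HIF1A was lower and EGLN1 higher in both hypoxic eKD groups. This made 2 of 7 called in eKD1, with 10.8% of all genes called, and 3 of 7 in eKD2, with 19.3% called. In eKD1, HIF1A was at 38.8% of the normoxic level (log2 change -1.34, adjusted p = 0.0236) and EGLN1 was 4.53-fold higher (log2 change 2.09, adjusted p = 0.0138). In eKD2, HIF1A was at 54.9% (log2 change -0.85, adjusted p = 0.0186) and EGLN1 was 6.42-fold higher (log2 change 2.58, adjusted p = 0.00715). CITED2 was called in eKD2, 1.41-fold above normoxia (log2 change 0.49, adjusted p = 0.0241), although hypoxic control cells were below normoxia. ARNT missed the threshold in both, with log2 changes of 0.62 (adjusted p = 0.0809) in eKD1 cells, and 0.70 (adjusted p = 0.05002) in eKD2. Both eKD1 calls were lost when every gene above 0 was tested, at adjusted p = 0.0627 for HIF1A and 0.0615 for EGLN1, as was CITED2 in eKD2 (0.0643). With a replicate block both eKD1 calls (0.0914) and those of HIF1A and CITED2 in eKD2 (0.0718 for both) were lost, and CITED2 in eKD2 was also lost without a variance trend (0.0589). EGLN1 in eKD2 was called in all 9 alternatives that keep every library.

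**Figure D2:**
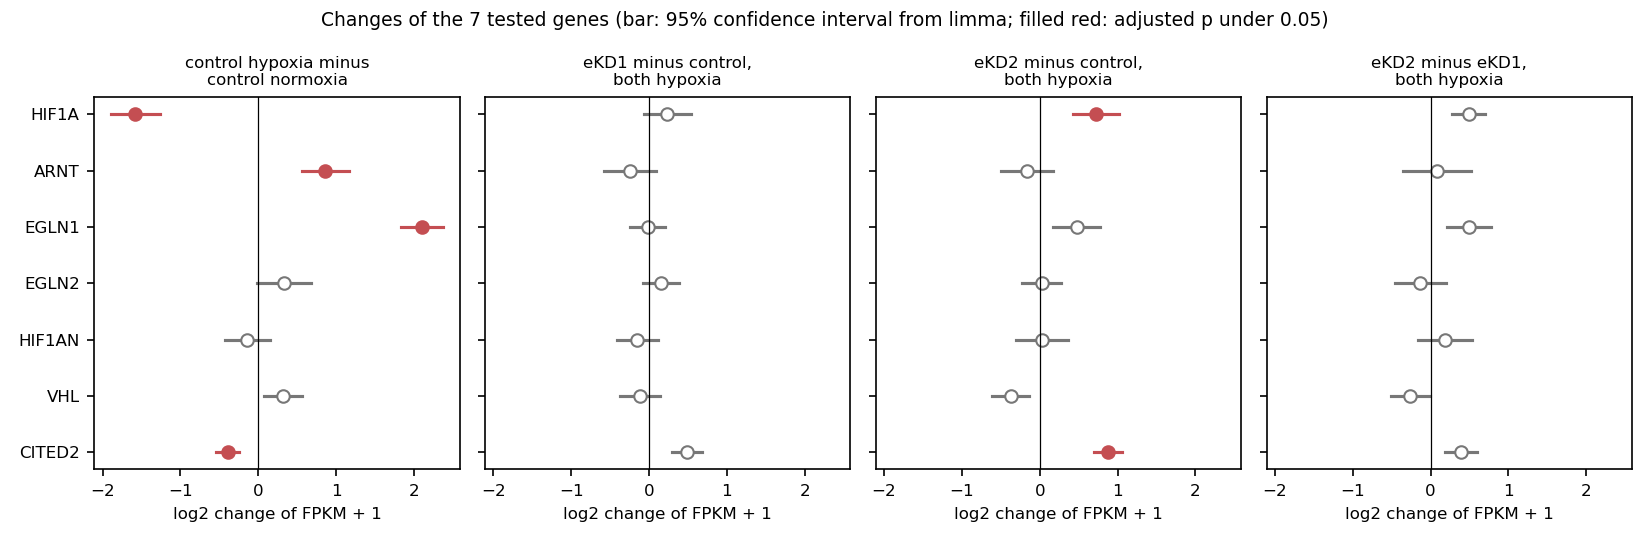
Log2 changes of FPKM + 1 for the 7 tested genes in 4 comparisons, with 95% confidence intervals from limma as bars and filled red points for an adjusted p under 0.05. Filled points stand for HIF1A, ARNT, EGLN1 and CITED2 in hypoxia and for HIF1A and CITED2 in eKD2 against hypoxic control cells, and there are none in the other panels.

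HIF3A left aside, the balance of alpha to beta mRNA changed with oxygen. The FPKM ratio of HIF1A plus EPAS1 to ARNT plus ARNT2 was 7.46 and 6.996 in normoxia, 1.20 and 1.37 in hypoxic control cells, 1.70 and 1.92 in eKD1 cells, and 2.71 and 2.14 in eKD2. Normoxia stood far above the rest, and the 3 hypoxic groups followed in the order eKD2, eKD1 and control without overlap. With 2 libraries against 2 the smallest two-sided exact permutation p is 0.333, so ratios were not tested.

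Prolyl hydroxylase mRNA moved the other way relative to its substrate. The ratio of EGLN1, EGLN2 and EGLN3 together to HIF1A was 0.962 and 0.725 in normoxia, 4.56 and 4.001 in hypoxic control cells, 3.95 and 3.78 in eKD1 cells, and 2.65 and 3.25 in eKD2. Their composition shifted as well, since EGLN1 made up 11.1% and 14.2% of the sum in normoxia, 33.3% and 35.6% in hypoxic control cells, 30.9% and 32.6% in eKD1 cells, and 41.8% in both eKD2 libraries. EGLN2 remained the larger part of the sum in all 8 libraries. CITED2 mRNA was 2.53 to 2.72 times that of HIF1A in normoxia and between 5.46 and 7.78 times in the 6 hypoxic libraries, where the 3 groups overlapped.

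**Figure D3:**
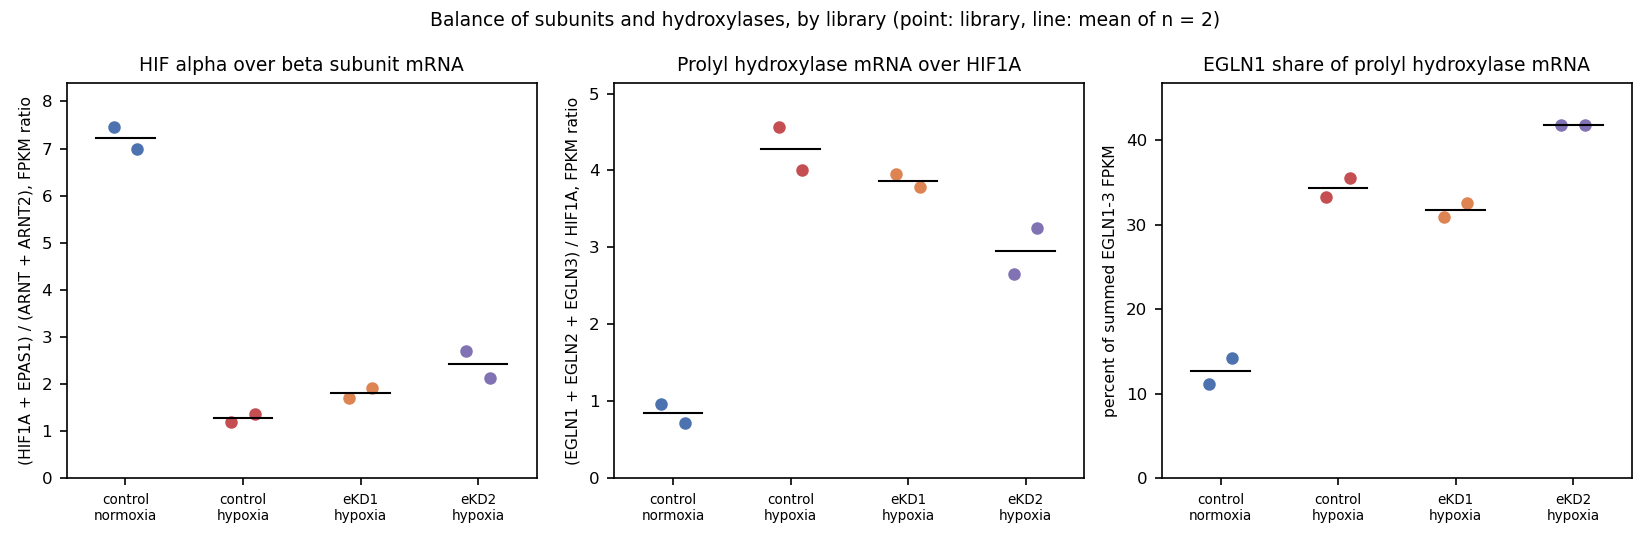
Ratios of FPKM within each library, with points for libraries and lines for the mean of n = 2: HIF alpha over beta subunits, prolyl hydroxylases over HIF1A, and the percent of prolyl hydroxylase FPKM from EGLN1. The first ratio is 7.46 and 6.996 in normoxia and at most 2.71 in hypoxia, and the EGLN1 share is highest in eKD2 at 41.8%.

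Transcripts that overlap HIF1A were checked because the library kit keeps no strand, so reads from shared bases cannot be assigned with certainty. The expression table names ENSG00000258667 HIF1A-AS2, while GENCODE 44, which gave its position and shared bases, names it HIF1A-AS3. This antisense non-coding RNA at 62174016 to 62217881 of chromosome 14 shares 299 exon bases with HIF1A, 5.80% of the HIF1A exons. It was at 0.657 and 0.448 FPKM in normoxia, 36.4 and 35.6 FPKM in hypoxic control cells, 39.5 and 39.2 FPKM in eKD1 cells, and 42.5 and 45.3 FPKM in eKD2. HIF1A-AS2 rose with hypoxia, by 4.58 on the log2 scale (SE 0.139, adjusted p = 0.00386), the opposite direction to HIF1A. Its changes in eKD1 (0.12, adjusted p = 0.361) and eKD2 (0.28, adjusted p = 0.0906) did not pass the threshold.

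A same-strand non-coding gene, AL137129.1, runs from 62200856 to 62242978 and shares 148 exon bases with HIF1A. It was at 7.86 and 8.61 FPKM in normoxia, 12.7 and 8.59 FPKM in hypoxic control cells, 21.0 and 22.7 FPKM in eKD1 cells, and 41.0 and 33.2 FPKM in eKD2. In eKD2 it was higher than in hypoxic control cells by 1.73 on the log2 scale (SE 0.229, adjusted p = 0.0369), and in eKD1 the change was 1.00 (adjusted p = 0.137). HIF1A-AS1 was listed at 0 in all 8 libraries. How far shared reads entered the value of HIF1A was not tested.

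**Figure D4:**
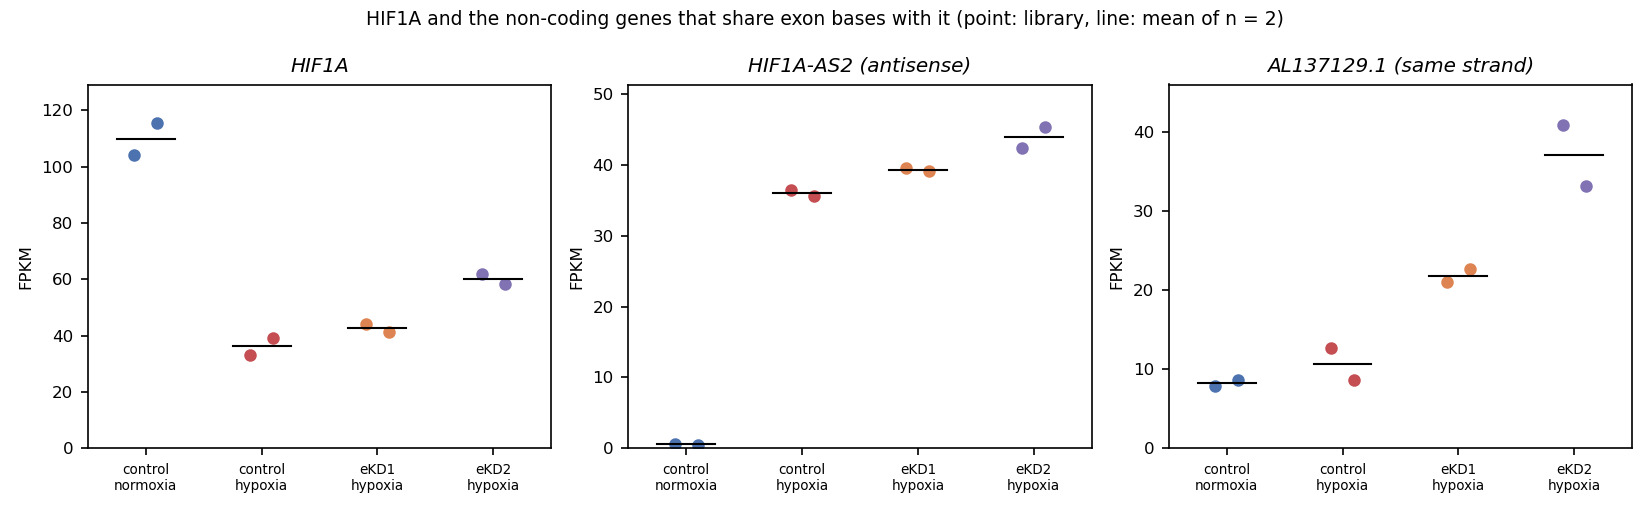
FPKM of HIF1A and of HIF1A-AS2 (HIF1A-AS3 in GENCODE 44) and AL137129.1, which share exon bases with it, by library (points) with the mean of n = 2 (lines). HIF1A-AS2 is below 1 FPKM in normoxia and at 35.6 FPKM or more in all hypoxic libraries, while AL137129.1 is highest in eKD2 at 41.0 and 33.2 FPKM.

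Other members share exons too. A readthrough gene, RAB4B-EGLN2, shares 2012 exon bases with EGLN2 and was at 1.11 FPKM or less. NDUFB8, on the opposite strand, shares 325 bases with HIF1AN and rose in hypoxia from 111 to 163 FPKM (adjusted p = 0.00976). The later annotation places further genes over EGLN1 (3004 shared bases) and VHL (1173), which have no row in the table.

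Some cell type markers changed in the direction of HIF1A in hypoxia and in eKD2 against hypoxic control cells. Of the 8 Ewing sarcoma markers, 6 were called lower in hypoxia, against 16% of all genes tested, and CD99 higher, against 16.2%. LIPI (a lipase gene) fell by 2.17 on the log2 scale (adjusted p = 0.00665) and NR0B1 (a nuclear receptor gene) by 0.87 (adjusted p = 0.0122). In eKD2 against hypoxic control cells 3 of the 8 were called higher, against 5.8% of all genes tested, and CD99 lower, against 3.81%. The higher ones were LIPI at 0.81 (adjusted p = 0.0359), NR0B1 at 1.06 (adjusted p = 0.0273) and CCND1 at 0.31 (adjusted p = 0.0339). In eKD1 against hypoxic control cells 0 of the 8 were called, where 0.0651% of all genes tested were. The summed level of the 8 markers was 1360.5 to 1377 FPKM in normoxia, 1211 to 1220 FPKM in hypoxic control cells, 1405 to 1520.5 FPKM in eKD1 cells, and 1350.3 to 1362 FPKM in eKD2 cells. LIPI (higher in eKD1 than eKD2), NR0B1 (highest in eKD2) and CCND1 (highest in eKD1) had other group orders than HIF1A. The same was true of CD99, NKX2-2 and PRKCB. STEAP1 and FLI1 had group means in the HIF1A order, although their eKD1 and eKD2 libraries overlapped. From normoxia through eKD2 and eKD1 to hypoxic control, the means were 114.7, 84.3, 81.1 and 66.0 FPKM for STEAP1. For FLI1 they were 36.6, 24.27, 24.16 and 21.5 FPKM. PTPRC, the leukocyte gene for CD45, also had its groups in the same order as HIF1A. It was at 22.5 and 23.8 FPKM in normoxia, 4.87 and 5.39 FPKM in hypoxic control cells, 10.0 and 9.59 FPKM in eKD1 cells, and 14.3 and 13.5 FPKM in eKD2. CD3E, a T cell gene, was listed at 0 in all 8 libraries. PTPRC fell in hypoxia by 1.98 on the log2 scale (SE 0.114, adjusted p = 0.00684). The fibroblast list (COL1A1, DCN, LUM) summed to 213 to 218 FPKM in normoxia, 248 to 253 FPKM in hypoxic control cells, 253 to 259 FPKM in eKD1 cells, and 226 to 240 FPKM in eKD2 cells, and the epithelial list (EPCAM, CDH1, KRT8) to 7.55 to 13.5 FPKM over all libraries. Their part in the results for HIF1A and the other members was not tested. In bulk RNA, fewer cells of a kind and less RNA per cell cannot be told apart.

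The genes whose profiles lay closest to the members were found by Pearson correlation of log2(FPKM + 1) over the 8 libraries, among 10673 genes with a mean of 5 FPKM or more. Closest to HIF1A were TOMM70 (r = 0.995), PHF20L1 (0.994) and KIF14 (0.990). Closest to EGLN1 were STC1 (0.998), TMBIM1 (0.997) and NEK6 (0.997), and closest to ARNT were GABARAP (0.995), YPEL1 (0.986) and PKIA (0.983). With normoxic and hypoxic libraries set apart, such values are a description and carry no p. STC1, a secreted glycoprotein hormone, went from 0.0582 and 0.119 FPKM in normoxia to 26.2 and 29.1 FPKM in hypoxic control cells, 24.6 and 21.1 FPKM in eKD1 cells, and 47.7 and 50.2 FPKM in eKD2, and like EGLN1 it was lowest in normoxia and highest in eKD2.

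Beyond the 10 members, 5 lists of genes from the same pathway were followed. Their counts of calls stand against 32.2% of all genes tested in hypoxia and 9.61% in eKD2 against hypoxic control cells, and the median of all genes was 0.01 and 0.05. The lists held 28 calls in hypoxia and 14 in eKD2. Of the latter, 0 were called with a replicate block or without a variance trend, and 3 (HSP90AA1, HSP90AB1 and RUVBL1) when every gene above 0 was tested. Of the 28 in hypoxia, 14 were called when every gene above 0 was tested, 19 with the block and 21 without the trend. Relatives of the subunits in the bHLH-PAS family gave 2 genes called higher and 2 lower of 8 tested in hypoxia (50%, against 32.2% of all genes), with a median log2 change of 0.07. HIF3A, whose product includes inhibitory forms, rose from 5.71 and 6.93 FPKM to 18.6 and 21.4 FPKM (log2 change 1.52, adjusted p = 0.0101), and NPAS1 rose by 1.60 (adjusted p = 0.0484). AHR, the dioxin receptor, which also pairs with ARNT, fell by 0.53 in hypoxia (adjusted p = 0.0306), and its repressor AHRR fell by 0.43 (adjusted p = 0.0316). In eKD2, AHR rose by 0.94 (adjusted p = 0.0359), the 1 call among these 8 (12.5%, against 9.61% of all genes).

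Partners of VHL in its ubiquitin ligase gave 2 genes called higher and 2 lower of 10 in hypoxia (40%, against 32.2% of all genes), with a median log2 change of -0.24. ELOB and NEDD8, an elongin and the modifier of the cullin, rose by 0.75 (adjusted p = 0.00653) and 0.52 (adjusted p = 0.0122). ELOC, the elongin that VHL binds directly, fell by 0.32 (adjusted p = 0.045), and COPS5, which removes NEDD8, fell by 0.50 (adjusted p = 0.0239). In eKD2, UBE2D3 alone was called of the 10 (10%, against 9.61% of all genes), 0.32 higher (adjusted p = 0.0435).

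Among 21 further factors tied to HIF alpha stability, 5 were called higher and 5 lower in hypoxia (47.6%, against 32.2% of all genes), with a median of 0.14. WSB1, a ubiquitin ligase subunit reported to act on VHL, rose from 93.3 and 110.3 FPKM to 399.9 and 363.1 FPKM (log2 change 1.90, adjusted p = 0.00681). RACK1 rose by 0.57 (adjusted p = 0.00794) and UCHL1 by 0.45 (adjusted p = 0.00941), while the p53 ligase MDM2 fell by 1.07 (adjusted p = 0.0491), the kinase GSK3B by 1.00 (adjusted p = 0.0212) and the SUMO protease SENP1 by 0.87 (adjusted p = 0.0273). In eKD2, 2 were called higher and 5 lower of the 21 (33.3%, against 9.61% of all genes), with a median of -0.13. SIAH2, a ubiquitin ligase for prolyl hydroxylases, rose from 48.7 and 41.3 FPKM in hypoxic control cells to 96.1 and 97.2 FPKM (log2 change 1.09, adjusted p = 0.0287). The chaperone genes HSP90AA1 and HSP90AB1, whose products bind HIF alpha protein, fell by 0.75 and 0.57 (adjusted p = 0.0273 for both). HSP90AA1 was at 621.8 and 596.7 FPKM in hypoxic control cells and at 371.6 and 351.3 FPKM in eKD2.

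HIF coactivators and factors of transactivation gave 2 called higher and 1 lower of 15 in hypoxia (20%, against 32.2% of all genes), with a median of -0.40, and 2 higher and 1 lower in eKD2 (20%, against 9.61%). PKM, a glycolytic enzyme, rose in hypoxia from 819.4 and 805.0 FPKM to 3030 and 2974 FPKM (log2 change 1.88, adjusted p = 0.0014) and was 0.42 lower in eKD2 than in hypoxic control cells (adjusted p = 0.0305). RUVBL1 fell by 1.06 in hypoxia (adjusted p = 0.00665) and rose by 0.74 in eKD2 (adjusted p = 0.028). CDK8, the Mediator kinase, rose by 0.84 in eKD2 (adjusted p = 0.0345). These hypoxia and eKD2 values share the hypoxic control libraries.

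Regulators of HIF1A mRNA and translation gave 3 genes called higher and 4 lower of 16 in hypoxia (43.8%, against 32.2% of all genes), with a median of -0.32. The translation repressor EIF4EBP1 rose by 0.74 (adjusted p = 0.00665), and its binding partner EIF4E fell by 0.82 (adjusted p = 0.00863), as did MTOR, the kinase upstream of both, by 1.02 (adjusted p = 0.0151). The RNA-binding proteins ZFP36L1 and YBX1 rose by 0.79 (adjusted p = 0.0194) and 0.52 (adjusted p = 0.00809). In eKD2, EIF4EBP1 was 0.33 higher (adjusted p = 0.0359) and YBX1 0.42 lower (adjusted p = 0.0273) than in hypoxic control cells, the 2 calls among the 16 (12.5%, against 9.61% of all genes). In eKD1, 0 genes of the 5 lists were called by limma, where 0.0651% of all genes were. At an unadjusted p under 0.05 there were 2 of 8, 3 of 10, 3 of 21, 4 of 15 and 8 of 16 in the order of the lists above, against 21.7% of all genes tested.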

How the data were processed

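RNA of SK-N-MC cells was measured in 8 libraries, whose titles gave the group and replicate number. Poly-A selected, unstranded libraries were read from one end, and the authors mapped the reads to GRCh37 with STAR and ran cufflinks and cuffnorm, and the deposited values are FPKM. How cuffnorm scaled the libraries is not given in the sources used here. The study applied DESeq2 to raw counts, which FPKM are not, so limma 3.58.1 (R 4.3.3) was fitted to log2(FPKM + 1), which understates changes of low genes.

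Genes needed 1 FPKM in 2 libraries, which kept 15372 of 60332. Each pair of groups was fitted alone, with a trend in the variance. Two-sided p-values were adjusted by Benjamini-Hochberg over the whole filtered table, and genes were called under 0.05. Absolute depth is unknown, so no counting interval was computed. The fit was tested on simulated data. Replicate numbers did not pair the libraries.

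The members and lists were chosen with earlier results of these data known. Named genes are the 10 members, genes overlapping them, LOXHD1, the 3 most alike genes for HIF1A, ARNT and EGLN1 and, for each list, up to 3 called rises and 3 called falls without overlap between libraries. Overlaps came from GENCODE 44 on GRCh37 and promoters from RefSeq. Alternatives were another pseudocount, filter, scaling or model, and omission of each library. Testing every gene above 0 in any library was added after seeing the data. A cell type marker of the fixed lists is not reported here.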

Additional observations from a re-analysis of the deposited data

Results flagged for a closer look

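EIF4EBP1, the repressor of cap-dependent translation, was the 1 gene among the members and pathway lists that was called between the 2 eKD groups in the direct test. It was at 557.8 and 566.7 FPKM in eKD1 cells, and at 915.9 and 965.8 FPKM in eKD2, a log2 change of 0.74 (SE 0.0466, adjusted p = 0.0461). This was 1 call of 16 in its list, with 0 of 8, 10, 21 and 15 in the other lists and 0 of 7 members. Of all genes tested, 0.403% were called. The call was lost in 5 of the 9 alternatives that keep every library, with adjusted p = 0.0512 with equal FPKM totals, 0.0522 under median-of-ratios rescaling, 0.0629 with genes above 0 in any library, 0.121 without a variance trend and 0.207 with a replicate block. The hypoxic control libraries, at 750.3 and 750.9 FPKM, lay between them, and the normoxic ones were at 457.9 and 443.0 FPKM.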

How the results depend on the processing

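The hypoxia calls of HIF1A, ARNT and EGLN1 held in all 9 alternatives that keep every library, and that of CITED2 in 7. EGLN2 was also called in hypoxia with no filter (adjusted p = 0.0267) and VHL in the shared fit (adjusted p = 0.0282), which gave 5 calls each. The counts of called members in the other comparisons changed. With no filter, 1 was called in eKD1, 3 in eKD2 against eKD1, 4 in eKD1 against normoxia, and 5 in eKD2 against normoxia. That setting includes 33177 genes at 0 in every library. When only genes above 0 in any library were tested, chosen after seeing the data, 1 was called in eKD2 against hypoxic control and 0 in eKD1 and 2 in eKD2 against normoxia. The shared fit of all 8 libraries called 1 in eKD1, 4 in eKD2, 3 in eKD2 against eKD1 and 4 in eKD1 against normoxia. Without a variance trend 0 were called in eKD2. With the replicate number as a block, 0 were called in eKD2, 0 in eKD1 against normoxia and 1 in eKD2 against normoxia. Same-numbered libraries did not deviate together (r = -0.06 to 0.13), so the block has no design behind it. Leaving out a library left 1 residual degree of freedom and 0 members called in every comparison, which says nothing on stability. The alpha to beta ratio then ranged from 6.996 to 7.46 in normoxia, 1.20 to 1.37 in hypoxic control, 1.70 to 1.92 in eKD1 cells, and 2.14 to 2.71 in eKD2.

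Directions turned only in changes that had not passed the threshold. EGLN1 in eKD1 became 0.052 with equal FPKM totals and ranged from -0.084 to 0.048 when single libraries were left out. In eKD2, EGLN2 became -0.042 under median-of-ratios rescaling and ranged from -0.081 to 0.13 with libraries left out, and HIF1AN became -0.028 and ranged from -0.076 to 0.14. ARNT in eKD2 against eKD1 ranged from -0.049 to 0.21. Against normoxia, CITED2 in eKD1 became -0.071 with equal totals, and HIF1AN in eKD2 ranged from -0.22 to 0.0059. The cause of these changes was not tested.

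Over all genes, the hypoxia count was 4946, against 3024 with genes above 0 and 2570 with the block. In eKD1 it was 10, against 2194 with no filter, 206 with genes above 0, 761 in the shared fit, 6 without a trend and 0 with the block. In eKD2 it was 1477, against 4115, 853, 2601, 28 and 0. In eKD2 against eKD1 it was 62, against 2413, 260, 1391, 5 and 0, and 105 with a mean of 5 FPKM. Against normoxia it was 1662 in eKD1, against 4065, 7, 3793, 298 and 0, and 2973 in eKD2, against 5251, 1261, 4551, 2116 and 51. Of the calls, 2486 of 4946 were higher in hypoxia and 1566 of 5510 with equal totals. In eKD2, 891 of 1477 were higher, 756 of 1594 under median-of-ratios rescaling and 1478 of 1908 with equal totals. Against normoxia, equal totals gave 684 of 2269 in place of 932 of 1662 in eKD1 and 1258 of 3040 in place of 1769 of 2973 in eKD2, where median-of-ratios rescaling gave 1460 of 2989. Absolute depth is unknown, so a listed 0 for EPAS1, ARNT2 or EGLN3 does not show absence and sets no exact limit on expression. Their lowest values above 0 in any library were 0.188, 0.0468 and 0.160 FPKM.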
